A study of Mus musculus with 4 samples.

Results

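This account concerns 8 genes that mark intestinal stem cells or belong to the Wnt pathway (Lgr5, Olfm4, Ascl2, Axin2, Smoc2, Sp5, Wnt3 and Sox9) out of 29161 genes counted in single cells from mouse enteroids. The genes were chosen by name, and all 8 were in the table. Enteroids are epithelial mini-guts grown in Matrigel, here with R-spondin-1 (a protein that amplifies Wnt signalling), EGF and noggin. All samples came from female CD1 mice with 1 Neurog3eYFP reporter allele and 1 wild-type allele, which all 4 samples thus share. Living eYFP-positive cells were sorted at 1 cell per well. Plates 1, 2 and 3 held cells of the duodenum (mice of 39, 12 and 12 weeks) and plate 4 cells of the jejunum (12 weeks). The Neurog3 reporter selects the endocrine lineage, so that these cells are no random sample of the crypt.

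Crypt base stem cells renew the epithelium under Wnt signals, which stabilise β-catenin and let it act with TCF/LEF factors on target genes. Lgr5 is a receptor for R-spondins and the classical marker of these stem cells, and Olfm4, Ascl2 and Smoc2 belong to their expression signature. Axin2 and Sp5 are direct Wnt targets, and Axin2 feeds back to restrain the pathway. Wnt3 is a Wnt ligand known from Paneth cells, the crypt's antimicrobial secretory cells. Sox9 is a transcription factor of the crypt base that Paneth cells need and that enteroendocrine cells can also express. Neurog3, the factor that starts the endocrine programme, is transient, and it precedes granule proteins such as Chgb and, in serotonin-producing enterochromaffin cells, the enzyme Tph1.

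The regions just before 2 of the start sites show how the direct Wnt targets in the set differ in sequence. A promoter window was found for 5 of the 8 genes (Olfm4, Ascl2, Axin2, Sp5 and Wnt3; RefSeq, GRCm38.p6), and none for Lgr5, Smoc2 and Sox9. The 250 bases before each start were searched on both strands for the TCF/LEF core CTTTGAA, for its variant ending in T (CTTTGAT) and for the further variants ending in TA (CTTTGTA) or in TT (CTTTGTT), which do not overlap one another in the matches found. Sp5 (chr2:70474673-70474922, plus strand) held 2 matches, shown in capitals. The first, 222 to 216 bases before the start, is CTTTGTT on the minus strand and so reads AACAAAG here. The second, 104 to 98 bases before the start, is CTTTGAT on the plus strand. Axin2 (chr11:108920099-108920348, plus strand) held 0 matches in this window, and so did Olfm4, Ascl2 and Wnt3. Among 32851 windows of this length, 4874 (14.8%) held 1 match or more and 469 (1.43%) held 2 or more.
Sp5: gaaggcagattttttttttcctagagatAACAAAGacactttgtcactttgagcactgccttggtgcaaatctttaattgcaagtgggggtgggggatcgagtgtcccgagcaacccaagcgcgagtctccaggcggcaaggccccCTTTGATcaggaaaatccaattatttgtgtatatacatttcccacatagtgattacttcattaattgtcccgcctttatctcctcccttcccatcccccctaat
Axin2: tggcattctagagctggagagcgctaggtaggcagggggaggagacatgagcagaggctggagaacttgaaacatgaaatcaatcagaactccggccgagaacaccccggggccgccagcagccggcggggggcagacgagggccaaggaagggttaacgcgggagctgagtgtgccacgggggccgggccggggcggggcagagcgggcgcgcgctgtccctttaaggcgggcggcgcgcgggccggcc

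By the GENCODE annotation of GRCm38, all 8 genes are protein coding. Lgr5 (ENSMUSG00000020140) lies at chr10:115450311-115587780 on the minus strand, Olfm4 (ENSMUSG00000022026) at chr14:79984081-80023139 on the plus strand and Ascl2 (ENSMUSG00000009248) at chr7:142966829-142969264 on the minus strand. Axin2 (ENSMUSG00000000142), Wnt3 (ENSMUSG00000000125) and Sox9 (ENSMUSG00000000567) all lie on chromosome 11, at 108920349 to 108950783, 103774150 to 103817957 and 112782224 to 112787760 on the plus strand. Smoc2 (ENSMUSG00000023886) lies at chr17:14279506-14404790 and Sp5 (ENSMUSG00000075304) at chr2:70474923-70477729, both on the plus strand. The same-strand transcript Gm6999, which overlaps Olfm4, held 39 counts. Antisense Gm11670, which overlaps Axin2, held 2 counts against 5191 for Axin2. The strand setting of the counting is not given in the sources used here, so reads of overlapping genes cannot be told apart.

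The table held 290 cells (72, 83, 72 and 63 in plates 1 to 4). Plate totals ran from 23893272 counts in plate 1 to 46490618 in plate 4, and median counts per cell from 321533.5 to 678124. Cells were grouped by the transcripts they held. There were 50 Neurog3-positive cells (at least 5 Neurog3 counts), 139 Chgb-low cells (under 2000 CPM, counts scaled to a total of 1000000 per cell) and 97 Tph1-high cells (at least 200 CPM). Of these, 24 cells were both Neurog3-positive and Chgb-low, 17 both Neurog3-positive and Tph1-high, and 0 both Chgb-low and Tph1-high. The Chgb-low class also held goblet and Paneth transcripts. Goblet markers summed to between 17830 and 24250 CPM in it, against 828 to 1510 CPM in Chgb-high cells, and Paneth markers to between 3217 and 13620 CPM, against 481.5 to 1656 CPM. All 8 goblet and all 10 Paneth markers were above 0 in both. In 78 of 139 Chgb-low cells (56.1%) and 7 of 151 Chgb-high cells, these markers together reached 10000 CPM. Immune markers stayed at or under 2.63 CPM in every class. The 4 stromal markers summed to 10.2 to 90.4 CPM in Tph1-high cells (Pdgfra at 0) and 0.350 to 1.76 CPM in the others, and their part in the Tph1 comparison was not tested.

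Most of these cells carried some stem cell or Wnt transcript, but few carried many. With at least 5 counts as detection, 253 of 290 cells held 1 or more of the 8 genes. The median was 2 genes per cell, and 72 cells held 3 or more. Sox9 was found in 141 cells (48.6%; exact Clopper-Pearson 95% interval 42.7 to 54.5%), Wnt3 in 119 (41.0%; 35.3 to 46.9%) and Smoc2 in 101 (34.8%; 29.4 to 40.6%). Axin2 was found in 60 cells (20.7%; 16.2 to 25.8%), Lgr5 in 46 (15.9%; 11.9 to 20.6%) and Sp5 in 28 (9.66%; 6.51 to 13.7%). Ascl2 was found in 17 cells (5.86%; 3.45 to 9.22%) and Olfm4 in 3 (1.03%; 0.214 to 2.99%). The stem cell markers covered the whole span from Smoc2 down to Olfm4. These intervals cover counting error only, since cells of a plate share 1 sample.

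**Figure D1:**
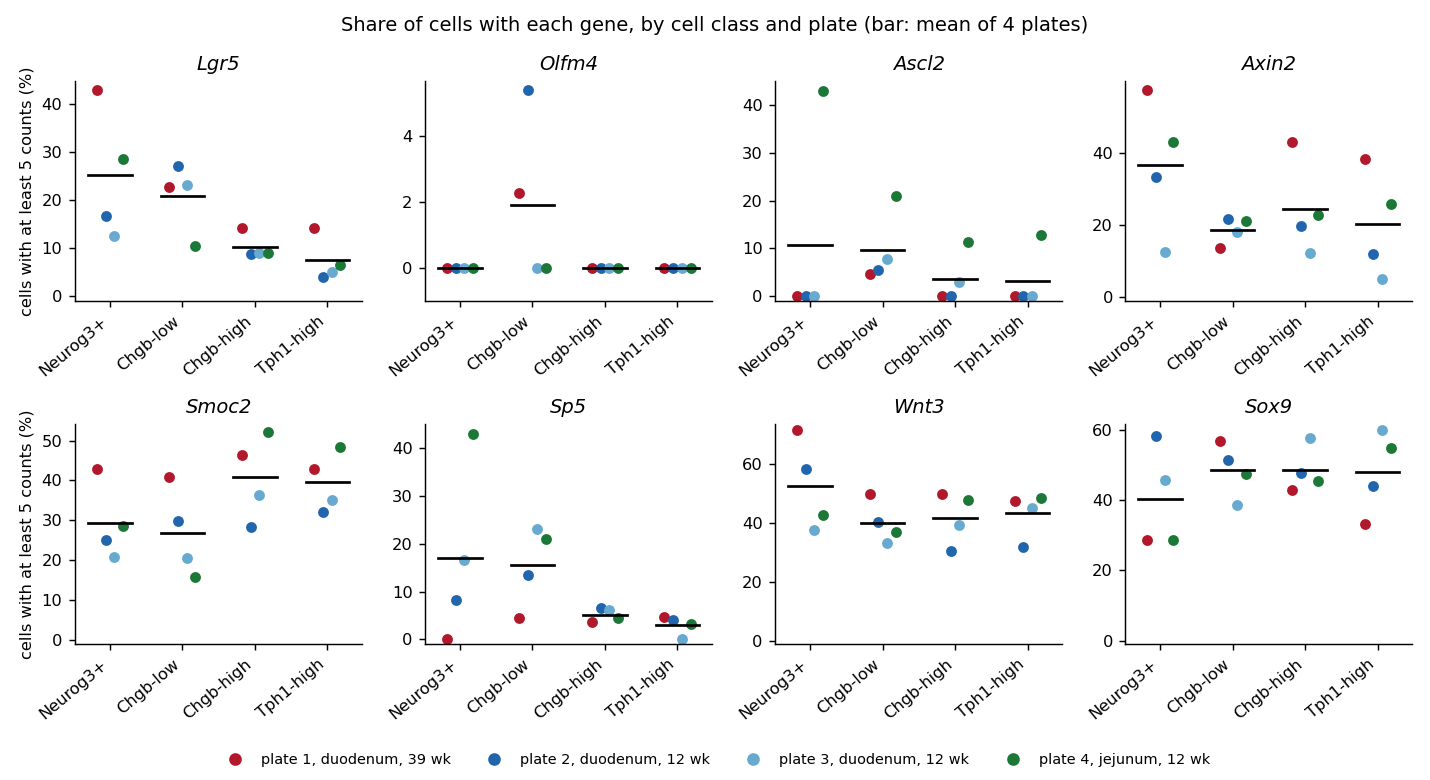
Percentage of cells with at least 5 counts of each gene (y axis) in Neurog3-positive, Chgb-low, Chgb-high and Tph1-high cells (x axis); each point is 1 plate and each bar the mean of 4 plates. Lgr5, Sp5 and Ascl2 were found in a larger share of Chgb-low than of Chgb-high cells in 4 of 4 plates, whereas Sox9 and Wnt3 had nearly the same mean share in both.

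Lgr5, the R-spondin receptor, was found more often in cells with little Chgb. The share of Chgb-low cells with Lgr5 was 22.7, 27.0, 23.1 and 10.5% in plates 1 to 4, against 14.3, 8.70, 9.09 and 9.09% of Chgb-high cells. Chgb-low was the higher class in 4 of 4 plates, with a mean share of 20.8% ± 7.15 (SD, n = 4 plates) against 10.3% ± 2.67, although the ranges overlapped through the jejunum plate. In sums over a class, as given for the levels here, fewer cells with a gene and less RNA per cell cannot be told apart. With every cell thinned to 100000 counts the direction held in 3 of 4 plates. The summed level of Lgr5 was 38.6, 22.6, 37.6 and 39.3 CPM in Chgb-low cells and 24.4, 12.4, 13.4 and 15.9 CPM in Chgb-high cells. It was thus higher in Chgb-low cells within each plate, and only plate 2 fell into the range of Chgb-high cells. By edgeR's quasi-likelihood test the log2 fold change of 1.49 ± 0.49 (SE over 4 plates) had an adjusted p of 0.172, and DESeq2 gave 0.00533. Over all alternative settings the adjusted p ran from 0.00533 to 0.416, and only DESeq2 called the gene.

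Of the classes, serotonin-marked cells held this receptor least often. Lgr5 was found in 14.3, 4.00, 5.00 and 6.45% of Tph1-high cells in plates 1 to 4 and in 21.6, 22.4, 21.2 and 12.5% of the other cells. The summed levels were 26.2, 7.80, 11.0 and 10.9 CPM in Tph1-high cells against 35.8, 21.2, 32.8 and 34.1 CPM. Every plate had less Lgr5 in Tph1-high cells, and only the 39-week plate's Tph1-high cells reached the range of the others. The log2 fold change was -1.46 ± 0.57 (SE, n = 4 plates; edgeR adjusted p 0.314, DESeq2 0.0241, 0.0241 to 0.608 over the alternatives). All Chgb-low cells are among the other cells of this comparison. Chgb-high cells that were not Tph1-high had a mean Lgr5 level of 20.3 CPM ± 5.48 (SD over plates), against 14.0 CPM ± 8.28 in Tph1-high cells. Their mean share with Lgr5 was 14.8%, against 7.43%. In Neurog3-positive cells the direction depended on how cells were weighted. Their summed Lgr5 level was 89.0, 16.1, 18.2 and 103 CPM, against 25.9, 17.1, 30.9 and 13.4 CPM in the other cells, so it was higher in plates 1 and 4 and lower in plates 2 and 3 (log2 fold change 0.99 ± 0.95, n = 4 plates, edgeR adjusted p 0.895). The mean CPM over cells, which gives each cell the same weight, was 85.7, 27.3, 20.8 and 92.2 against 29.2, 14.5, 20.6 and 9.59 CPM, higher in 4 of 4 plates and by little in plate 3. Both measures rest on few cells, since only 3, 2, 3 and 2 Neurog3-positive cells held Lgr5 at 5 counts or more. By share of cells with Lgr5, the Neurog3-positive class was higher in 2 plates and lower in 2. The classes Neurog3-positive and Chgb-low meet in 24 cells, of which 7 held Lgr5 (29.2%), against 24 of the 115 Neurog3-negative Chgb-low cells (20.9%). Plate 3, with 13 of the 24 cells, went the other way (15.4% against 26.9%), and plate 4 had 3 of them (66.7% against 0%).

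Cells with Lgr5 were also described by what else they held. Their class shares restate the class comparisons above, counted from the side of the gene. Of the 46 cells with Lgr5, 31 were Chgb-low (67.4%), against 108 of the 244 cells without it (44.3%), and 7 were Tph1-high (15.2%) against 90 (36.9%). The median summed level of enteroendocrine markers was 2272 CPM in cells with Lgr5 and 12520 CPM in cells without. It was lower in plates 2, 3 and 4 but not in plate 1 (2617 against 2439 CPM). These markers include Chgb, which defines the classes, so this level is not independent of the Chgb-low shares. Goblet markers had medians of 2488 and 1628 CPM over all cells, higher with Lgr5 in plates 2 and 3 and lower in plates 1 and 4. Median depth was 412800 and 426800 counts over all cells, but 790900 against 416900 in plate 3 and 878000 against 665700 in plate 4. Among Chgb-low cells under 10000 CPM of goblet and Paneth markers, 17 of 61 held Lgr5 (27.9%), and among those at or over that level 14 of 78 did (17.9%). Plate 3 went the other way (20.8% against 26.7%). Leaving out all cells with such marker levels, a limit chosen after the data had been seen, gave a Lgr5 log2 fold change of 1.94 ± 0.63 (SE) between Chgb-low and Chgb-high cells (n = 4 plates, edgeR adjusted p 0.203).

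Olfm4, a secreted glycoprotein of crypt base cells, was found in the fewest cells. It held 218, 68, 18 and 6 counts in plates 1 to 4. A single well held 98.6% of the counts of plate 1 (215 of 218), and the highest well of plate 2 held 33 of 68. In plate 2, 19 wells held Olfm4, 12 of them with 1 count. Only 3 cells reached 5 counts, 1 in plate 1 and 2 in plate 2. All 3 were Chgb-low. No Neurog3-positive or Tph1-high cell reached 5 counts, but 6 of 50 Neurog3-positive and 13 of 97 Tph1-high cells held 1 or 2 counts. Olfm4 passed the filter on low counts in 3 of the 6 comparisons, and its log2 fold change in Tph1-high cells was -2.42 ± 1.78 (SE, n = 4 plates, edgeR adjusted p 0.566).

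Ascl2, the transcription factor of the stem cell state, was rare. Plates 1 to 4 had 2, 2, 4 and 9 cells with the gene, and its median count in the positive wells besides the highest reached 69 in plate 4. The summed level in Chgb-low cells was 3.54, 9.73, 13.3 and 52.8 CPM, against 0.0995, 0, 15.2 and 18.1 CPM in Chgb-high cells. Chgb-low cells were higher in 3 of 4 plates by level and in 4 of 4 by share, and the classes overlapped between plates. The log2 fold change was 3.53 ± 1.89 (SE over 4 plates). It ranged from 2.19 (without plate 2) to 5.15 (without plate 3) with 1 plate left out, and was 1.62 without the plate term and 0.32 with limma on mean CPM. Its adjusted p was 0.346 in edgeR and 0.0227 in DESeq2 (0.0227 to 0.684 over the alternatives).

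In Tph1-high cells Ascl2 held 0, 0, 1 and 369 counts in plates 1 to 4, against 50, 166, 529 and 855 in the other cells. Nearly all of it in this class came from the jejunum, where 4 of 31 Tph1-high cells held the gene. The fitted log2 fold change was -6.34 ± 1.97 (n = 4 plates, edgeR adjusted p 0.224, DESeq2 9.02e-05, up to 0.712 over the alternatives). Because plates at 0 enter it, that value depends on the fit's prior count, and it is no measure of how many times lower the level was. All Chgb-low cells are among the other cells here too. Chgb-high cells that were not Tph1-high had a mean Ascl2 share of 3.85% ± 4.44 (SD over plates), against 3.23% ± 6.45 in Tph1-high cells. Their mean level was 15.8 CPM ± 18.4, against 3.68 CPM ± 7.28. Neurog3-positive cells held 0 Ascl2 counts in each of the 3 duodenum plates and 449 in the jejunum plate. There the summed level was 107 CPM in Neurog3-positive cells against 18.3 CPM in the others, whereas the other cells of plates 1 to 3 had 2.34, 5.02 and 19.1 CPM. The direction of this comparison therefore differed by plate, and its fitted value (-6.06 ± 3.27, n = 4 plates, edgeR adjusted p 0.766, DESeq2 0.0345, up to 1.0 over the alternatives) became positive without the plate term, at 1.40.

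Smoc2, a matrix-associated protein of the stem cell signature, ran against Lgr5 in the class sums of the Chgb and Tph1 comparisons, though not in detection cell by cell (below). Its summed level was 58.9, 34.5, 69.0 and 34.4 CPM in Chgb-low cells and 160, 70.6, 89.3 and 172 CPM in Chgb-high cells. The Chgb-low class was lower in 4 of 4 plates, and its range ended below the lowest Chgb-high plate. By share, Smoc2 was found in 40.9, 29.7, 20.5 and 15.8% of Chgb-low cells and 46.4, 28.3, 36.4 and 52.3% of Chgb-high cells, which was lower in 3 of 4 plates, and in 4 of 4 with cells thinned. The log2 fold change was -0.89 ± 0.41 (SE over 4 plates; adjusted p 0.291 in edgeR and 0.113 in DESeq2). With limma on mean CPM over cells it was -1.40 ± 0.28 with an adjusted p of 0.0368, the lowest over the alternatives (highest 0.524). In Neurog3-positive cells Smoc2 was also the lower in 4 of 4 plates, at 94.9, 27.3, 66.3 and 58.7 CPM against 102, 58.7, 81.5 and 148 CPM (log2 fold change -0.65 ± 0.46, edgeR adjusted p 0.839). Tph1-high cells had 147, 65.0, 84.4 and 150 CPM against 79.0, 49.6, 75.3 and 127 CPM, higher in 4 of 4 plates (0.24 ± 0.25, edgeR adjusted p 0.705). The other cells here include all Chgb-low cells. Chgb-high cells that were not Tph1-high had a mean of 154 CPM ± 77.4 (SD over plates), against 112 CPM ± 43.3 in Tph1-high cells. Their mean share with Smoc2 was 45.2%, against 39.6%, so Smoc2 was not higher in Tph1-high cells by these means.

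**Figure D2:**
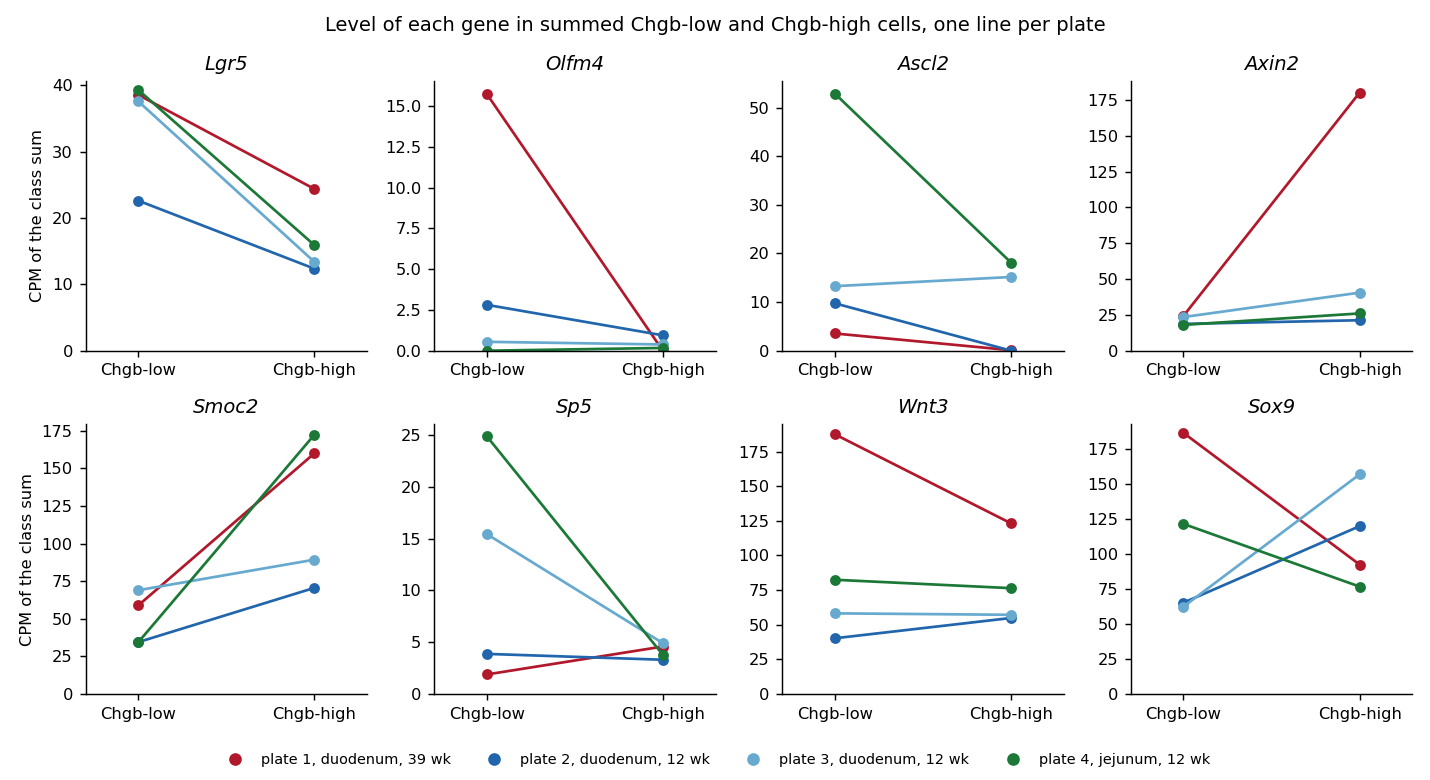
Summed level of each gene in CPM (y axis, from 0) in the Chgb-low and Chgb-high cells of each plate (x axis), with 1 line per plate. Lgr5 was lower in Chgb-high cells on all 4 lines, Smoc2 and Axin2 were higher on all 4, and Sox9 went both ways.

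The direct Wnt targets Axin2 and Sp5 did not share a pattern. Axin2, the feedback inhibitor, had 24.3, 18.7, 23.5 and 18.0 CPM in Chgb-low cells and 180, 21.3, 40.5 and 26.0 CPM in Chgb-high cells. It was lower in Chgb-low cells in 4 of 4 plates, with the largest gap in the 39-week plate (log2 fold change -0.64 ± 0.59, SE, n = 4 plates, edgeR adjusted p 0.584). Without that plate the value was -0.13 ± 0.54. The share of cells did not follow, since Axin2 was found in a larger share of Chgb-low cells in 2 plates and a smaller one in the other two. In Neurog3-positive cells Axin2 reached 237, 29.6, 31.1 and 109 CPM, against 72.4, 18.6, 30.4 and 15.7 CPM in the other cells. This was higher in 4 of 4 plates, by little in plate 3 and most in the jejunum (1.34 ± 0.65, edgeR adjusted p 0.741). Only 4, 4, 3 and 3 cells carried those Neurog3-positive values, and single cells made up most of the 2 largest. In plate 1, 1 Neurog3-positive cell held 488 Axin2 counts and the next highest 91. In plate 4, 1 such cell held 385 and the next highest 47. Tph1-high cells had 117, 16.5, 15.9 and 29.2 CPM of Axin2 against 76.3, 21.8, 35.3 and 18.1 CPM, higher in 2 of 4 plates (-0.23 ± 0.50, edgeR adjusted p 0.872).

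Sp5, a transcription factor induced by Wnt signals, was found in 4.55, 13.5, 23.1 and 21.1% of Chgb-low cells and 3.57, 6.52, 6.06 and 4.55% of Chgb-high cells. Chgb-low was the higher class in 4 of 4 plates, also with cells thinned, with mean shares of 15.6% ± 8.41 (SD, n = 4 plates) and 5.18% ± 1.36. The summed level was 1.88, 3.87, 15.5 and 24.9 CPM against 4.58, 3.30, 4.91 and 3.78 CPM. By level the 39-week plate went the other way (log2 fold change 1.28 ± 1.1, n = 4 plates, edgeR adjusted p 0.558). Tph1-high cells had 5.79, 0.493, 0.110 and 5.06 CPM against 1.63, 4.98, 14.6 and 13.3 CPM in the other cells, lower in 3 of 4 plates (-2.45 ± 1.90, edgeR adjusted p 0.589). Only 3 Tph1-high cells held Sp5. Within the Chgb-low cells, 15 of the 61 under 10000 CPM of goblet and Paneth markers held Sp5 (24.6%) and 5 of the 78 others (6.41%). The same split was 18.0 and 17.9% for Axin2, and 19.7 and 35.9% for Smoc2. For Axin2 the plates went both ways, with 0, 38.5, 20.8 and 12.5% against 21.4, 12.5, 13.3 and 27.3% in plates 1 to 4.

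Wnt3, the ligand, had similar mean shares in the classes. Its mean share was 40.2% ± 7.18 (SD, n = 4 plates) of Chgb-low cells, 41.9% ± 8.89 of Chgb-high cells and 43.3% ± 7.64 of Tph1-high cells. The summed level was 187, 40.2, 58.2 and 82.4 CPM in Chgb-low cells and 123, 54.9, 57.1 and 76.4 CPM in Chgb-high cells, so the 39-week plate was the highest in both classes and the ranges overlapped. The log2 fold change was 0.48 ± 0.26 (SE, edgeR adjusted p 0.360). Neurog3-positive cells had the largest mean share, 52.5% ± 15.4, and were the higher class in 3 of 4 plates by share (level: 0.29 ± 0.42, edgeR adjusted p 0.945). Tph1-high cells had 133, 68.9, 44.2 and 63.7 CPM against 174, 38.7, 62.1 and 94.7 CPM, higher in plate 2 only (-0.35 ± 0.35, edgeR adjusted p 0.691). Within Chgb-low cells Wnt3 was found in 36 of the 78 cells with 10000 CPM or more of goblet and Paneth markers (46.2%) and in 21 of the 61 others (34.4%).

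Sox9 was found in the most cells at 5 counts (at 1 count Wnt3 was, with a mean share of 65.6% against 63.5%) and showed no common direction. Its mean share was 48.5% ± 7.73 (SD, n = 4 plates) of Chgb-low, 48.4% ± 6.43 of Chgb-high and 48.0% ± 11.9 of Tph1-high cells. The summed level was 186, 65.2, 62.3 and 121 CPM in Chgb-low cells and 92.4, 120, 157 and 76.6 CPM in Chgb-high cells. Plates 1 and 4 were higher in Chgb-low cells and plates 2 and 3 lower (log2 fold change 0.27 ± 0.43, SE, edgeR adjusted p 0.768). In Tph1-high cells the level was 84.7, 127, 160 and 92.1 CPM against 178, 80.8, 83.3 and 81.5 CPM, higher in plates 2, 3 and 4 (0.01 ± 0.39, edgeR adjusted p 0.995). Neurog3-positive cells had 25.6, 96.0, 145 and 62.1 CPM against 161, 95.4, 86.0 and 89.8 CPM, higher in 2 of 4 plates (-0.48 ± 0.65, edgeR adjusted p 0.938). None of these differences exceeded the spread between plates.

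**Figure D3:**
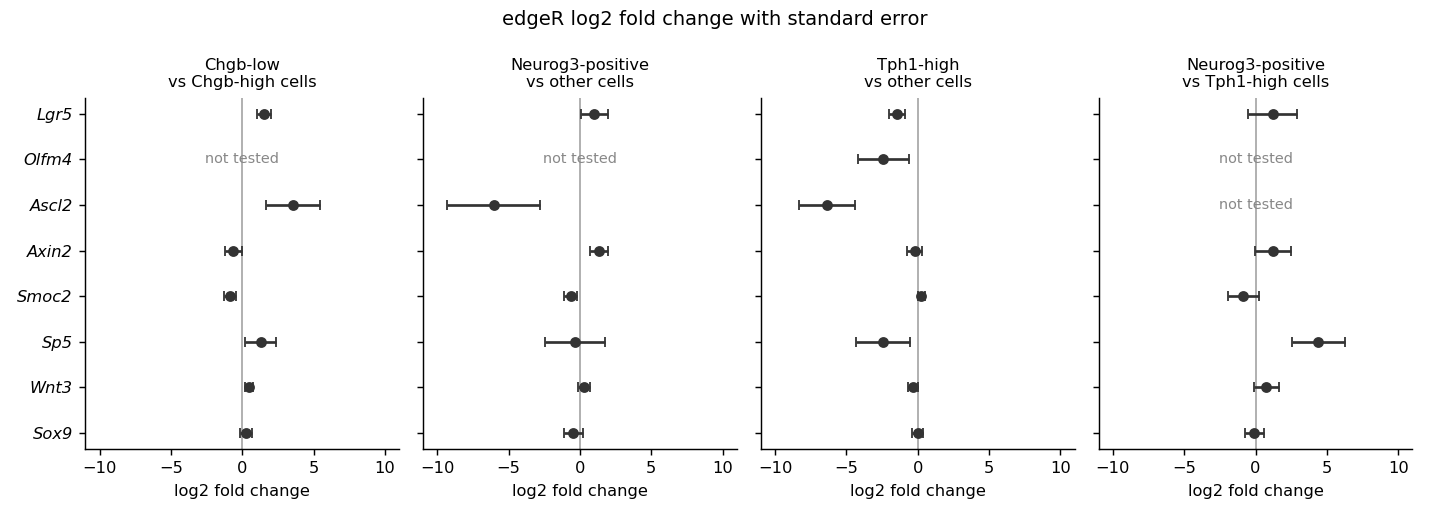
edgeR log2 fold change (x axis) with its standard error for each gene (y axis) in the 4 comparisons of cell classes; genes that did not pass the filter on low counts are given as not tested. Lgr5, Ascl2, Sp5 and Wnt3 lie above 0 in the Chgb comparison and below 0 in the Tph1 comparison. These 2 comparisons are not independent, since all Chgb-low cells are among the other cells of the Tph1 comparison. The widest bars belong to Ascl2, Sp5 and Olfm4, the genes found in the fewest cells.

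None of the 8 genes passed edgeR's threshold over all genes in any comparison of classes. Between Chgb-low and Chgb-high cells, 505 of 12679 genes tested passed an adjusted p of 0.05 in edgeR (3.98%; 315 higher and 190 lower), and of the 7 members tested (all but Olfm4) 0 did. Their median log2 fold change was 0.48, against -0.08 over all genes tested, with 5 values above 0. For Tph1-high against other cells, 229 of 12836 genes passed (1.78%) and 0 of 8 members, whose median was -0.90, with 6 values below 0, against -0.15 over all genes. For Neurog3-positive against other cells, 3 of 12439 genes passed (0.0241%, all lower) and 0 of 7 members (without Olfm4). There the median over all genes was -0.55 and over the members -0.37. At an unadjusted p under 0.05, edgeR gave Lgr5 in the Chgb comparison (1 of 7 members, against 2621 genes, 20.7%), Lgr5 and Ascl2 in the Tph1 comparison (2 of 8, against 1916 genes, 14.9%) and 0 of 7 in the Neurog3 comparison. DESeq2 called more genes throughout (3045, 2061 and 1102, where edgeR tested 12679, 12836 and 12439). Among them were Lgr5 and Ascl2 in the first, Lgr5 and Ascl2 in the second and Ascl2 in the last. The shares of all genes called by DESeq2 were not computed, so these member calls are not set apart from calls over all genes. Without 1 plate at a time edgeR called 114, 114, 130 and 291 genes in the Chgb comparison, 10, 4, 4 and 116 in the Tph1 comparison and 0 to 3 in the Neurog3 comparison (plates left out in order 1 to 4), with 0 members among them. An exact two-sided sign-flip test over 4 plates cannot go below p = 0.125, so the plate counts above carry no test of their own.

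Neurog3-positive cells that were not Tph1-high were also set against Tph1-high cells that were not Neurog3-positive, in the plates with at least 5 cells of both (plates 2 and 3). Sp5 had 5.46 and 7.20 CPM in the first and 0.553 and 0.165 CPM in the second. The Tph1-high values rest on 6 and 1 counts. The log2 fold change was 4.40 ± 1.85 (SE, n = 2 plates, edgeR adjusted p 0.626). Lgr5 had 21.3 and 25.8 CPM against 8.66 and 16.1 CPM (1.20 ± 1.70), and Axin2 39.8 and 44.6 CPM against 18.5 and 23.9 CPM (1.21 ± 1.28). Smoc2 was lower, at 25.7 and 35.1 CPM against 69.0 and 57.7 CPM (-0.86 ± 1.09). For these 4 genes the classes did not overlap across the 2 plates, but the share of all genes that separate this way was not computed. edgeR called 0 of 10815 genes here (0%) and 0 of 6 members (without Olfm4 and Ascl2). At an unadjusted p under 0.05 it gave 806 genes and 0 members, and DESeq2 called 846 genes and 0 members (without a value for Sp5). With classes of at least 3 cells, which takes in all 4 plates and was added after the data had been seen, edgeR called 113 genes and 0 members, and Lgr5 had 2.57 ± 1.24 (edgeR adjusted p 0.469).

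**Figure D4:**
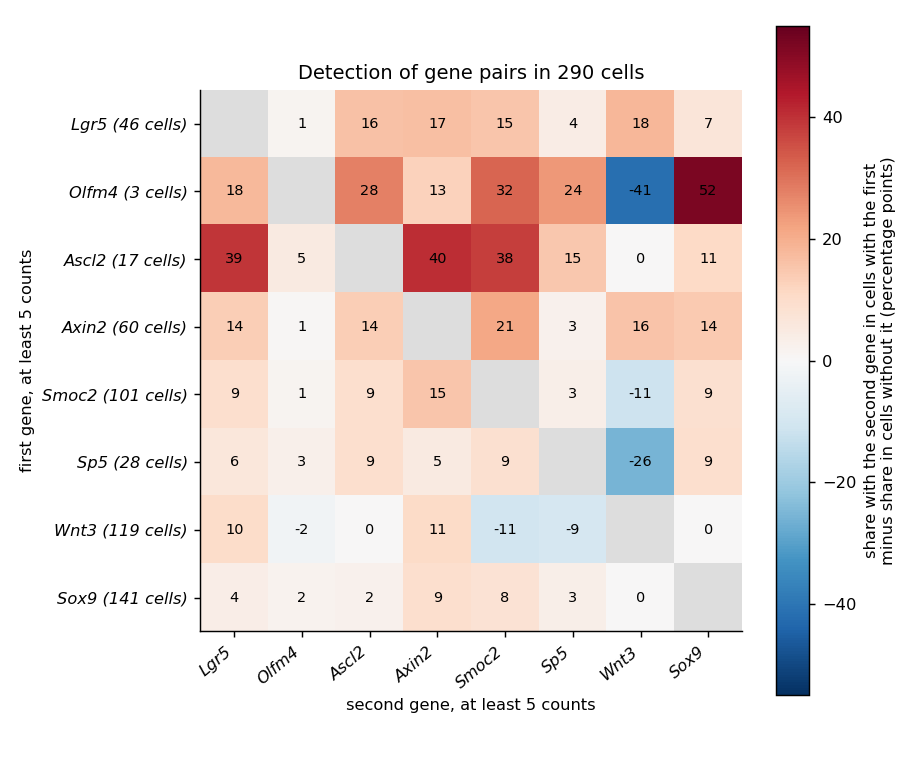
Difference, in percentage points, between the share of cells with the second gene (x axis) among cells with the first gene (y axis) and among cells without it, both at 5 counts or more, over all 290 cells. The Ascl2 row is high for Lgr5, Axin2 and Smoc2, the Wnt3 row is negative for Smoc2 and Sp5, and the Olfm4 row rests on 3 cells.

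Cells that held Ascl2 held Smoc2, Axin2 and Lgr5 more often than cells without it. Of the 17 cells with Ascl2, 12 held Smoc2 (70.6%, against 32.6% of the cells without Ascl2), 10 held Axin2 (58.8% against 18.3%) and 9 held Lgr5 (52.9% against 13.6%). For Smoc2 and Axin2 the share was higher in 4 of 4 plates, and for Lgr5 in 3 of 4. The counts of cells with both genes all include the same 4 deep cells, described below, that held 6 or 7 of the 8 genes. These counts rest on 2, 2, 4 and 9 cells with Ascl2 in plates 1 to 4. The median sum of cycling markers in them was 354, 1536, 852 and 7.24 CPM, against 3.62, 7.64, 9.32 and 21.7 CPM without Ascl2. The part of cycling cells in these shares was not tested. Over all plates the median depth was 811300 counts in cells with Ascl2 and 416300 in the others. By plate, the cells with Ascl2 were deeper in plates 2 and 3 and shallower in plates 1 and 4 (313800 against 321500 and 572900 against 691200 counts). Thinned to 100000 counts, with 1 count as detection, 18 cells held Ascl2, and they held Smoc2 in 77.8% (against 37.5%), Axin2 in 50.0% (against 21.0%) and Lgr5 in 44.4% (against 17.3%), with the same plate counts. Few such wells can lose the gene by thinning, and copies of 1 molecule may be counted. Thinning therefore cannot show what depth contributes, and this was not tested. Cells of a plate share their culture, and the shares carry no test.

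Other pairs differed less, apart from some with Olfm4, which rest on 3 cells. Axin2 was found in 34.8% of the cells with Lgr5 and 18.0% of those without, higher in 4 of 4 plates. After thinning this was 27.3% against 21.7%, higher in 3 of 4. Smoc2 was found in 47.8% of the cells with Lgr5 and 32.4% of those without, higher in 3 of 4 plates. Thinned cells gave 49.1% against 37.9%, again higher in 3 of 4. Smoc2 was found in 51.7% of the cells with Axin2 and 30.4% of those without, higher in 4 of 4 plates both before and after thinning (53.0% against 36.2%). Wnt3 was found in 56.5% of the cells with Lgr5 and 38.1% of those without, higher in 3 of 4 plates (thinned, 56.4% against 44.7%, 2 of 4). For cells with and without Axin2 it was found in 53.3% and 37.8%, higher in 4 of 4 plates (thinned, 51.5% against 45.5%, 3 of 4). Wnt3 ran the other way with 2 further genes. Smoc2 was found in 28.6% of the cells with Wnt3 and 39.2% of those without, and Sp5 in 4.20% and 13.5%, lower in 4 of 4 plates for both. With cells thinned, the values were 37.5% against 42.2% for Smoc2 and 6.62% against 11.0% for Sp5, with 0 plates higher. Over single cells, the mean of the 4 within-plate Spearman correlations was highest for Ascl2 with Smoc2 (0.223), and it lay between -0.0901 and 0.169 for the other 27 pairs, weak values in sparse counts.

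A handful of cells held most of the set. Only 4 cells held 6 or 7 of the 8 genes, 1 in plate 2, 2 in plate 3 and 1 in plate 4. All 4 held Ascl2, Smoc2, Axin2 and Lgr5, so they are counted among the cells with Ascl2 above. The cell of plate 2 held 36 counts of Lgr5, 9 of Olfm4, 154 of Ascl2, 11 of Axin2, 119 of Smoc2, 7 of Sp5, 155 of Sox9 and 0 of Wnt3. Cycling markers summed to between 713 and 1218 CPM in these 4 cells, against a median of 9.27 CPM in the 106 cells with a single member and 21.8 CPM in the 23 cells with 4 or 5. All 4 were deep, with 1232578 to 2312044 counts. Thinned to 100000 counts they held 5 to 6 members, but thinning cannot show what depth contributes, which was not tested. None of the 4 was Neurog3-positive by the 5-count rule, 2 were Chgb-low and 1 was Tph1-high. High cycling markers were not confined to them, since 53 other cells had 100 CPM or more. These 4 cells enter the sums over classes with their full depth.

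Plates also differed in ways that tissue, age, animal and plate share. The 39-week plate had the highest levels of Axin2 (89.9 CPM over all its cells, against 20.1 and 30.6 CPM in the 12-week duodenum plates) and Wnt3 (160 CPM against 48.3 and 57.8 CPM). The log2 fold changes were 1.66 ± 0.56 and 1.44 ± 0.46 (SE, 1 plate against 2), with unadjusted p of 0.0279 and 0.0222 and adjusted p of 0.640 and 0.630 in edgeR (DESeq2 0.138 and 0.114). edgeR called 0 of 18480 genes in this comparison (0%) and 0 of 8 members. Unadjusted, it gave 1412 genes, 2 of them these members, and DESeq2 called 1008 genes and 0 members. By share the 39-week plate had Wnt3 in 50.0% of its cells and Axin2 in 25.0%, against 34.9 and 36.1%, and 20.5 and 15.3%. Age, animal and plate cannot be told apart, and 1 plate against 2 cannot give a permutation p below 0.333.

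The jejunum plate had the most Ascl2, in 14.3% of its cells against 2.78, 2.41 and 5.56% of the duodenum cells, and 26.3 CPM against 2.09, 4.34 and 14.1 CPM. The log2 fold change was 1.88 ± 1.21 (SE, 1 plate against 3, edgeR adjusted p 0.934). It also had the most Smoc2, 140 CPM against 102, 54.5 and 77.5 CPM (0.85 ± 0.51, edgeR adjusted p 0.934), and the smallest share of cells with Lgr5, 9.52% against 19.4, 16.9 and 16.7%. The summed Lgr5 level, 21.5 CPM, lay within the duodenum plates' 16.9 to 32.6 CPM. edgeR called 0 of 19329 genes (0%) and 0 of 8 members. Unadjusted, it gave 819 genes and 0 members, and DESeq2 called 803 genes and 0 members. Tissue, animal and plate cannot be told apart here, and 1 plate against 3 cannot give a permutation p below 0.25.

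**Figure D5:**
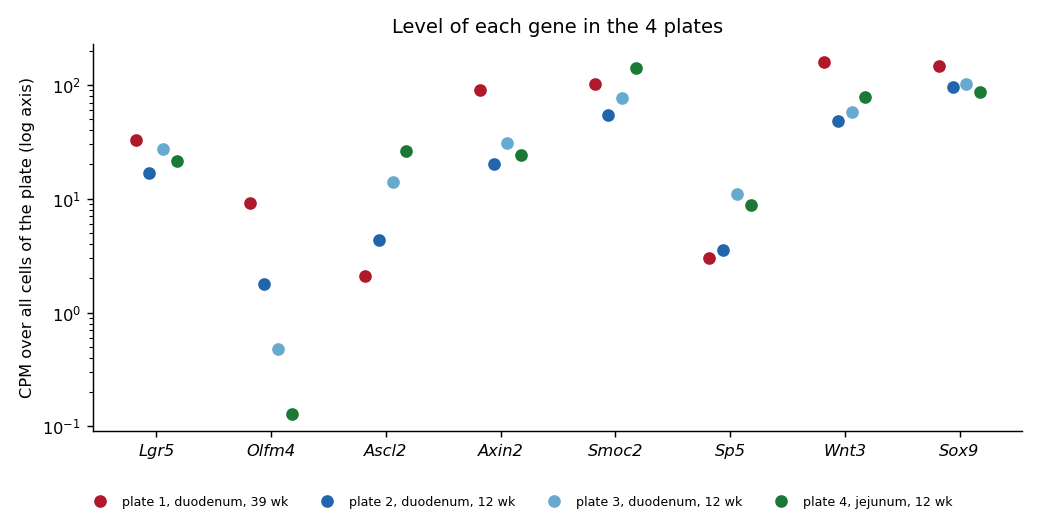
Level of each gene in CPM over all cells of a plate (y axis, logarithmic) for the 8 genes (x axis), with 1 point per plate. The 39-week plate is highest for Axin2 and Wnt3, the jejunum plate for Ascl2 and Smoc2, and Olfm4 spans the widest range, with 1 well of plate 1 holding most of its counts.

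Genes of the surrounding pathway were tested in 6 lists, to be read against the 3.98% of all genes called in the Chgb comparison. There, 1 of 18 crypt base genes tested was called higher and 0 lower. This was Cd24a, a surface glycoprotein of crypt base and Paneth cells, with 1178, 1408, 1360 and 1466 CPM in Chgb-low cells of plates 1 to 4 against 807, 1014, 1143 and 590 CPM (log2 fold change 1.05 ± 0.19, edgeR adjusted p 0.0414). Of 4 other Sox genes tested, Sox4, a transcription factor active in endocrine and tuft progenitors, was called higher, at 227, 207, 243 and 302 CPM against 148, 73.5, 80.5 and 65.6 CPM (1.89 ± 0.31, edgeR adjusted p 0.0325). Of 23 genes of the Wnt machinery, 0 were called higher and Bcl9, a coactivator of β-catenin, was called lower, at 58.8, 14.0, 18.8 and 40.7 CPM against 211, 63.8, 69.9 and 123 CPM (-1.48 ± 0.26, edgeR adjusted p 0.0416). For all 3 genes the values of the classes did not overlap. They were named because they were called and changed the same way in every plate, so this adds no support. Each call was lost in edgeR with any 1 plate left out, with the direction kept (adjusted p 0.0501 to 0.159 for Sox4, 0.0619 to 0.159 for Cd24a and 0.101 to 0.169 for Bcl9). Calls also ended for Sox4 with a Chgb limit of 1000 CPM (0.0742), for Cd24a without the plate term (0.0852), with limma (log2 fold change 0.61, 0.112) and with a limit of 4000 CPM (0.0691), and for Bcl9 without the filter on low counts (0.101), without the plate term (0.214) and with limits of 1000 and 4000 CPM (0.0964 and 0.0694).

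Among the other Wnt targets and feedback genes 0 of 13 were called, among Wnt ligands and secretion factors 0 of 3, and among Notch and crypt fate genes 0 of 5 (2, 0 and 0 at an unadjusted p under 0.05 in edgeR, against 20.7% of all genes). Median log2 fold changes were 0.43 over the crypt base genes, 0.53 over the Wnt targets and -0.63 over the machinery, against -0.08 over all genes. In the Tph1 and Neurog3 comparisons edgeR called 0 genes of any of these 6 lists. Unadjusted, 4 of 18 crypt base genes, 3 of 13 Wnt targets and 2 of 23 machinery genes were under 0.05 in the Tph1 comparison (14.9% of all genes), and 2 of 17, 3 of 12 and 0 of 22 in the Neurog3 comparison (6.91% of all genes). Goblet and Paneth markers moved with the Chgb comparison as given above. Without the cells rich in them, the log2 fold change was 0.66 ± 0.19 for Cd24a, 1.52 ± 0.38 for Sox4 and -1.35 ± 0.44 for Bcl9 (SE over 4 plates), and none of the 3 passed edgeR's threshold (adjusted p 0.167, 0.121 and 0.208).

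For Lgr5, Olfm4 and Sox9 the genes with the most similar pattern over single cells were sought. Among 4692 genes found in at least 20% of cells, the highest mean within-plate Spearman correlations with Lgr5 were those of Oat (0.261), Gm15148 (0.242), Eif4b (0.239) and Ruvbl2 (0.235). For Olfm4 they were Metap1 (0.222), Chchd1 (0.221), Cdk6 (0.218) and Irf2bpl (0.210), and for Sox9, Ddx3x (0.230), Limk2 (0.221), Adprh (0.218) and Dag1 (0.217). Plates disagreed even on these: the Ddx3x correlation ran from -0.127 to 0.458 and that of Eif4b from 0.0419 to 0.449. The points are cells that share a plate and differ in depth, so the values are a description only.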

How the data were processed

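Single eYFP-positive cells of 4 plates (3 duodenum, 1 jejunum; 92 cells sorted per plate) were profiled with the BD Precise WTA kit, per the labels' protocols. Whole-number counts for 290 cells were deposited in 1 table, with genes as lines and wells as columns. The submitters' processing notes name bcl2fastq 2.17.1.14, cutadapt 1.10, Bowtie2 2.2.8, STAR 2.5.3a, UMI-tools 0.4.4, HTSeq 0.6.1 and the build mm10, with no role or order. Collapsing of copies by molecular index is not given in the sources used here. Single values reach 643177, copies of 1 molecule may thus be counted, and intervals cover counting error only. In all 41 of 29161 genes had no symbol. Columns were assigned to samples by the experiment number in their name and the pool number in the sample title, which left 0 unassigned. Nothing says how many animals a plate holds. With plate as a block, the p-values of class comparisons measure how the class difference varies from plate to plate. In comparisons of whole plates they measure the spread between plates. Either variation may be technical.

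Counts were summed over the cells of a class in each plate (at least 5 cells), and cells were never treated as replicates. Sums were tested with edgeR 4.0.16 (quasi-likelihood, TMM, filterByExpr, plate as a block, Benjamini-Hochberg over all genes tested, threshold 0.05; standard error from the F value) in R 4.3.3. Both classes come from the same plates, which is where the pairing by plate comes from. Detection meant at least 5 counts. Alternatives were DESeq2 1.42.0, its size factors in edgeR, no filter, limma 3.58.1 on log2(mean CPM + 10), no block, other class limits and leaving out each plate. Thinning to 100000 counts left out 0 cells, since the totals of all cells ran from 202711 to 2312044 counts. No further cell filter and no doublet caller were applied. The 8 genes, the class limits, the gene lists and the marker lists were chosen with earlier results of these data known. List genes were named if past the threshold and changed the same way in every plate, up to 4 per direction. Scripts were tested on simulated data.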

Additional observations from a re-analysis of the deposited data

Results flagged for a closer look

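In 4 cases the jejunum plate went one way and each of the 3 duodenum plates the other, on the log2 scale of summed CPM + 1. The difference between tissues was not tested, since 1 plate stands for the jejunum. For Olfm4 in Chgb-low against Chgb-high cells the jejunum value was -0.23, where 0 and 6 counts were compared. For Olfm4 in Tph1-high against other cells it was 0.08, from 4 and 2 counts. For Wnt3 in Neurog3-positive against other cells it was -0.57, against 0.50, 0.29 and 0.68 in the duodenum plates. For Ascl2 in the same comparison it was 2.49, against -1.74, -2.59 and -4.33, where the Neurog3-positive cells of the 3 duodenum plates held 0 counts and 3 of 7 jejunum cells held the gene.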

How the results depend on the processing

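The 44 values of single genes were recomputed in 373 alternatives. In 346 the direction and the side of the threshold held, in 21 the direction turned with no value past the threshold, and in 6 the value passed the threshold, 5 of them with DESeq2 and 1 (Smoc2) with limma. Turned values in the Chgb comparison were those of Sox9 (-0.11 with limma, -0.15 to 0.61 without 1 plate). In the Neurog3 comparison they were Ascl2 (0.065 with limma, 0.70 with a limit of 1 Neurog3 count), Sp5 (0.36 with limma, -1.76 to 0.96 without 1 plate) and Sox9 (-1.004 to 0.16 without 1 plate, 0.0152 with a limit of 1 count). In the Tph1 comparison they were Axin2 (-0.54 to 0.17 without 1 plate), Smoc2 (-0.0228 with a limit of 400 CPM, -0.0398 without the cells rich in goblet and Paneth markers) and Sox9 (-0.21 to 0.43 without 1 plate). Wnt3 ranged from -0.46 to 0.50 in the jejunum comparison without 1 plate, and turned to -0.51 between Neurog3-positive and Tph1-high cells with 4 plates. The cause was not tested.

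Without the plate as a block, which pairs classes of 1 plate, 1 gene was called in the Neurog3 comparison and 131 in the Tph1 comparison. Turned values there were Ascl2 1.40 and Sp5 2.07 in the former, and Axin2 0.0038 and Sox9 -0.037 in the latter.

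The number of genes called moved by over 1.5 times in several settings. DESeq2 called 3045, 1102 and 2061 genes in the Chgb, Neurog3 and Tph1 comparisons, 846 between Neurog3-positive and Tph1-high cells, 803 for the jejunum and 1008 for age. Without each plate in turn, the Chgb comparison gave 114, 114, 130 and 291 genes (fewer samples), the Neurog3 comparison 0 to 3, the Tph1 comparison 10, 4, 4 and 116, and the jejunum comparison 0 to 10. Leaving out plates was not run between Neurog3-positive and Tph1-high cells or for age, where no spread between plates would remain. Without the filter on low counts, 5 genes were called between Neurog3-positive and Tph1-high cells, 9 for the jejunum and 226 for age. With limma the Neurog3 comparison gave 1 and the comparison with Tph1-high cells 7, with 4 plates the latter gave 113, and with a limit of 1 Neurog3 count 0 were called. Without the cells rich in goblet and Paneth markers, chosen after seeing the data, 161 genes were called in the Chgb and 11 in the Tph1 comparison.

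At 1 count as detection, the mean share over plates was 26.5% for Lgr5, 12.9% for Olfm4, 32.7% for Axin2, 52.2% for Smoc2, 65.6% for Wnt3 and 63.5% for Sox9. Sox9 was 45.9% at 10 counts and 53.1% in thinned cells, and Olfm4 2.90% in thinned cells. Values of Olfm4, Ascl2 and Sp5 rest on 3, 17 and 28 cells with 5 counts or more.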
